A study of Homo sapiens with 12 samples.

Results

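Most cellular mRNAs end in a poly(A) tail, but 2 large classes of RNA do not, and 81 of their genes are described here out of 2587 genes in the authors' deposited table. The members were taken by symbol. Histone genes have names that begin with HIST1, HIST2 or HIST3. The rest are genes of small nuclear RNA (snRNA) and 7SL RNA, small nucleolar RNA (snoRNA), ribosomal RNA (rRNA) and mitochondrial tRNA (mt-tRNA). The 26 histone genes are 1 H1, 6 H2A, 8 H2B, 5 H3 and 6 H4 genes. Of the H2B rows, HIST2H2BA and HIST3H2BA are annotated as pseudogenes. The 55 small RNA genes are 19 rows of snRNA and 7SL, 15 of snoRNA, 16 of rRNA and 5 of mt-tRNA. The symbol rule reads no measured value, though it was set with earlier results of these data known, and the table itself holds only genes with a false discovery rate (FDR) below 0.05 and a difference above 4-fold in one comparison or more. Among the 81 members, 20 passed both limits in HuRKO over WT cells at rest, 52 in the same contrast after activation, 31 with activation of WT cells and 42 with activation of HuRKO cells. Over all listed genes these shares were 21.4%, 54.0%, 59.1% and 49.6%. Since that limit chose the rows, nothing is read from these counts. Of the members, 23 are listed through a single comparison: 3 through HuRKO over WT at rest, 14 through it after activation, 6 through activation of WT cells and 0 through activation of HuRKO cells. For those rows the call in that comparison was fixed by the selection. Histone and small RNA genes outside the table were not analysed here, so the members are not all genes of their classes.

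The RNA came from Jurkat cells, an established human line derived from a T-cell leukaemia. Wild-type (WT) cells and cells labelled as knocked out for HuR (HuRKO), the RNA-binding protein that ELAVL1 encodes, were each sequenced at rest and after activation by PMA (20 ng/mL) plus ionomycin (500 ng/mL) over 24 h, a drug pair that stands in for T-cell receptor signalling. Each of the 4 groups has 3 libraries, 12 in all, and every library was made from poly(A) RNA with a strand-specific kit, per the labels' protocols. Whether the HuRKO cells are 1 clone or a pool is not given in the sources used here.

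Replication-dependent histone mRNAs are made mainly in S phase, when new DNA needs new nucleosomes, and are cut just after a conserved stem-loop in place of receiving a poly(A) tail. U1, U2 and U4 snRNAs work in the spliceosome and carry a short Sm site on which a ring of Sm proteins assembles. Box C/D and box H/ACA snoRNAs guide chemical changes of rRNA, U3 guides early cuts of the rRNA precursor, 5S and 5.8S rRNA are parts of the large ribosomal subunit, and mt-tRNAs are cut out of long mitochondrial transcripts. Selection for poly(A) removes most molecules of these classes, and how completely it did so in each library was not tested.

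The histone stem-loop was found in the annotated model of 10 of the 26 histone genes, while the other 16 models end before it or do not hold it in the form searched. The following 26-base windows (hg38, GENCODE 29, strand of the gene) show it in capitals for 5 genes whose values are given below. They lie at chr6:26217412-26217437 (plus strand), chr6:26216213-26216238 (minus), chr6:26199963-26199988 (plus), chr6:26204996-26205021 (plus) and chr1:149811880-149811905 (minus).
HIST1H2AE: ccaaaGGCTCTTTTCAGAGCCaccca
HIST1H2BG: tcaaaGGCTCTTTTCAGAGCCactca
HIST1H2BF: ccaaaGGCTCTTTTAAGAGCCaccca
HIST1H4E: tcaaaGGCCCTTTTCAGGGCCgccca
HIST2H2BF: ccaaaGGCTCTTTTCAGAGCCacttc
In 5 of the 10 genes a poly(A) signal also stands within 40 bases of the end of the longest model. They are HIST1H3G, HIST1H4E, HIST1H4J, HIST2H2BF and HIST2H3C. The model of HIST1H4J ends 6 bases past the stem-loop, so its signal, 29 bases from the end, does not lie past the stem-loop. The model of HIST2H2BF goes on for 1479 bases past the stem-loop and that of HIST1H4E for 1022 bases.

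Among the small RNAs, the spliceosomal genes are shown by the 30 bases around their Sm site, in capitals, because the U4 genes had the largest called folds of the snRNAs between genotypes and the U2 rows are the most numerous. The windows lie on the minus strand at chr1:16666805-16666834 for RNU1-3, chr17:43233861-43233890 for RNU2-1, chr12:120293101-120293130 for RNU4-1 and chr12:120291767-120291796 for RNU4-2.
RNU1-3: tcgactgcataATTTGTGgtagtgggggac
RNU2-1: atattaaatggATTTTTGgagcagggagat
RNU4-1: cggcactggcaATTTTTGacagtctctacg
RNU4-2: cggcattggcaATTTTTGacagtctctacg
The Sm site itself has the same letters in RNU2-1 and both U4 genes. Counted from the 5′ end of RNU4-1, the RNU4-2 row carries C37T, G88A, C99A and C113T.

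Many of the 55 small RNA rows are copies of one another, so they are not independent measurements. All 12 5S rows have 1 identical sequence of 119 bases, and all 4 5.8S rows have 1 identical sequence of 153 bases. Of the 13 U2 rows, 11 are identical over 191 bases, 1 is 192 bases long, and 1 differs from RNU2-1 by the substitution C170T, counted from the RNA's 5′ end. The 25 bases around that position (capital: the differing base), at chr17:43233796-43233820 for RNU2-1 and chr17:43290300-43290324 for the variant row, both on the minus strand, are as follows.
RNU2-1: gtattgcagtacCtccaggaacggt
U2 variant row: gtattgcagtacTtccaggaacggt
How reads from identical copies were shared among rows is not given in the sources used here, so each family is uncertain as to which copy gave the RNA. In the deposited means the 11 identical U2 rows lie between 75.5 and 79.7 normalised counts, and the row with C170T lies at 42.6.

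Depth per library is unknown, and the values per library were not analysed here. Each group level below was rebuilt from the mean and fold changes of the authors' deposited table, in normalised counts over 3 libraries, and has no error of its own. The tests are those of the same table, and a gene counts as called where its FDR is below 0.05. Nothing in the labels says that libraries of a group came from separate cultures, so the spread behind the FDR may be technical. The rebuilt ELAVL1 level was 4042 in resting and 2552 in activated WT cells, against 596 and 471 in HuRKO cells, and no protein level was analysed here. Of 12 T-cell markers looked for, CD2, CD7 and TRAC were in the table, and the other 9 were not analysed here. TRAC, a T-cell receptor gene, stood at 3510, 23285, 552 and 17916 in resting WT, activated WT, resting HuRKO and activated HuRKO cells, CD7 at 3890, 643, 2425 and 649, and CD2 at 1760, 1307, 380 and 399.7. With activation TRAC thus rose and CD7 fell in both genotypes, and CD2 fell in WT cells, by the FDR of the authors' deposited table. Of the markers of other cells looked for, 1 of 5 for B cells, 2 of 5 for monocytes, 0 of 5 for epithelial cells, 1 of 4 for fibroblasts and 2 of 5 for erythroid cells were listed, with levels from 0.393 to 210.0 in any group. The erythroid genes HBA1 and HBA2 were 17.1- and 15.5-fold higher in resting HuRKO than in resting WT cells, at levels of 27.8 and 20.4. The monocyte gene ITGAM was at least 67.2-fold higher after activation of WT cells, the monocyte gene CSF1R at least 7.11-fold, the B-cell gene CD79B 14.1-fold and the fibroblast gene COL1A1 7.16-fold. The part of these markers in the results was not tested.

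In most members the rebuilt level was highest in resting WT cells and lowest in activated HuRKO cells. These levels count only what the poly(A) libraries captured, which may differ from the RNA that the cells held. Resting WT cells had the highest rebuilt level in 71 of the 81 members, and activated HuRKO cells the lowest in 70. All 16 rRNA rows followed both rules. Identical and near-identical copies of an RNA count as separate members here, so these rows are not independent. The order also follows the table's selection in part. Its limit was passed by 52 members in activated HuRKO over WT cells and by 42 with activation of HuRKO cells. The same shares over all listed genes were not computed, so these counts only describe the listed members. The 11 members not lowest in activated HuRKO cells were all 5 mt-tRNAs and the histone genes HIST1H2AK, HIST2H2BF, HIST3H2BA and HIST3H2BB, all lowest in activated WT cells, and both 7SL rows. Of these members, only MT-TY and RN7SL494P were called between the activated genotypes. The signed changes are plotted by class, and the classes were not tested against each other.

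**Figure D1:**
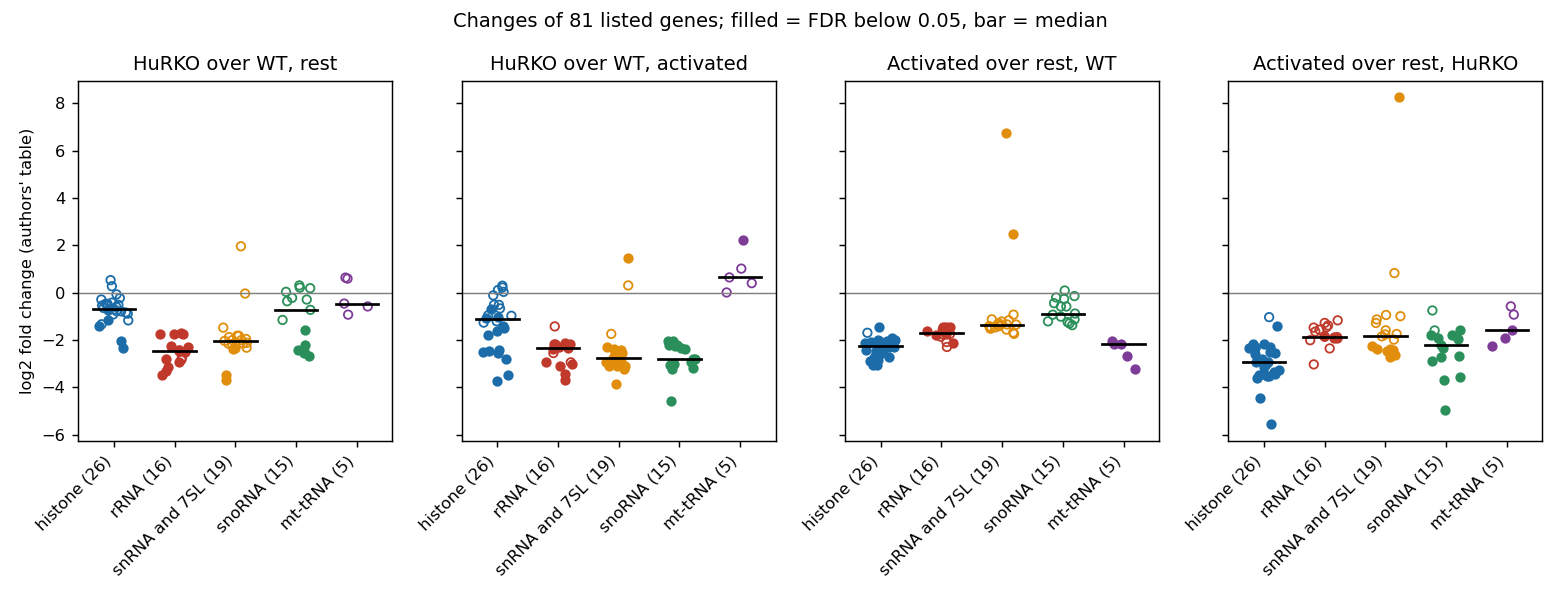
Log2 fold change (vertical axis, authors' deposited table) of each of the 81 members in the 4 comparisons, by class, with the number of rows in parentheses; filled points have FDR below 0.05, open points do not, and bars are medians. Histone mRNAs sit lowest in the activation panels, with medians of -2.27 in WT and -2.92 in HuRKO cells, while rRNA rows are below 0 in every panel.

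Activation lowered nearly the whole histone group in both genotypes. In WT cells 25 of 26 histone genes fell by the FDR of the authors' deposited table and 0 rose, where 21.8% of all listed genes fell and 52.0% rose. In HuRKO cells 25 of 26 fell and 0 rose, against 18.5% and 58.1% of the listed genes. The median log2 change was -2.27 in WT and -2.92 in HuRKO cells, beside medians of 1.42 and 1.45 over all listed genes in the authors' deposited table. The table's limit was passed by 23 histone genes with activation of WT cells and by 24 with activation of HuRKO cells, but by 2 for genotype at rest and 7 after activation. Most of the group is thus listed through activation, and the activation counts describe the listed genes only. These libraries come from whole cultures, so fewer cells that express a gene and less of its RNA per cell cannot be told apart.

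The linker histone gene HIST1H1E, whose protein binds the DNA between nucleosomes, stood at 347 in resting WT, 81.4 in activated WT, 285 in resting HuRKO and 50.1 in activated HuRKO cells. Both activated groups thus lay below both resting groups. The log2 change with activation was -2.09 in WT (FDR 4.6e-22) and -2.51 in HuRKO cells (FDR 9.9e-28) in the authors' deposited table, the lowest FDR of any histone gene in both.

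The same order, rest above activated in each genotype, held for the core histone rows. Apart from the pseudogenes HIST2H2BA and HIST3H2BA, these genes encode proteins of the spool that DNA winds around. HIST1H4E, an H4 gene, stood at 295 and 55.9 in resting and activated WT cells and at 178 and 39.3 in HuRKO cells. HIST1H2BM, an H2B gene, stood at 132 and 18.5 in WT cells and at 192 and 17.2 in HuRKO cells. It was 7.14-fold lower after activation in WT and 11.2-fold lower in HuRKO cells, and was 1 of 2 histone genes with a higher level in resting HuRKO than in resting WT cells (log2 0.53, FDR 0.17, authors' deposited table).

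The largest falls with activation of WT cells were in H2B and H3 genes. HIST1H2BG went from 34.9 to 4.19, HIST3H2BB from 156 to 18.9 and HIST2H3D from 62.1 to 8.37. Their log2 changes were -3.06 (FDR 1.3e-05), -3.04 (FDR 4.6e-06) and -2.89 (FDR 7.2e-08) in the authors' deposited table. All 8 H2B (both pseudogenes included), 5 H3 and 6 H4 genes fell in WT cells, as did 5 of 6 H2A genes.

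Activated HuRKO cells brought several H2A genes close to the floor of 1 normalised count, which corresponds to 3 counts over the 3 libraries of a group. HIST1H2AB stood at 21.8 and 4.51 in resting and activated WT cells, and at 15.8 and 0.336 in resting and activated HuRKO cells. Against the floor it was at least 15.8-fold lower after activation of HuRKO cells. HIST1H2AL stood at 15.3, 4.75, 18.6 and 0.86 in the same 4 groups, and was at least 18.6-fold lower after activation of HuRKO cells. HIST1H2AL lies over an exon of HIST1H2BN on the same strand, so reads of the pair cannot be told apart.

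Of the 26 histone genes, 24 fell with activation in both genotypes, and the other 2 were both H2A genes. HIST1H2AL missed the threshold in WT cells (log2 -1.69, FDR 0.051), and HIST1H2AK missed it in HuRKO cells (log2 -1.03, FDR 0.17), in the authors' deposited table. HIST1H2AK stood at 38.7 and 7.34 in WT and at 15.4 and 7.54 in HuRKO cells, so the activated groups lay close together, and neither genotype difference was called. The difference between the WT and the HuRKO response was not tested for any gene, since the table has no such comparison.

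**Figure D2:**
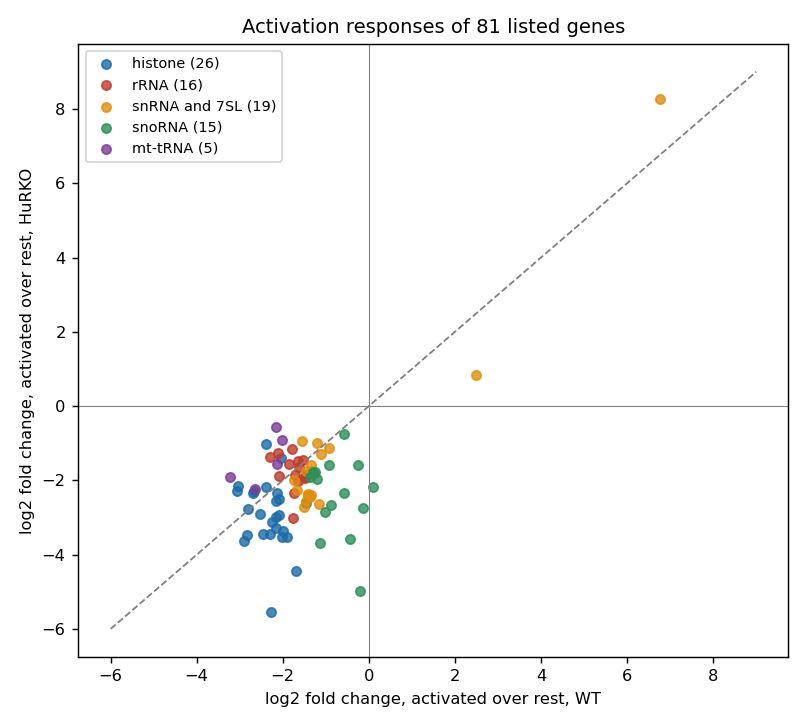
Log2 change with activation in WT cells (horizontal axis) against that in HuRKO cells (vertical axis) for the 81 members, from the authors' deposited table; the dashed line marks equal change and colours mark the class. Histone genes gather in the lower left, snoRNA rows lie between -1.37 and 0.10 on the horizontal axis and between -4.97 and -0.75 on the vertical axis, and 1 7SL row stands alone at 6.75 and 8.26.

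For genotype, fewer of these listed histone genes were called. At rest 5 of 26 were lower in HuRKO than in WT cells and 0 higher, where 15.4% of all listed genes were lower and 25.0% higher by the FDR of the authors' deposited table. The median histone log2 change was -0.67, beside 0.18 over all listed genes. After activation 14 were lower and 0 higher, where 35.4% of all listed genes were lower and 42.2% higher, and the median log2 change was -1.13, beside 0.36, in the authors' deposited table.

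The 5 genes lower in resting HuRKO cells were the H4 genes HIST1H4C, HIST1H4E and HIST1H4F and the neighbours HIST1H2AE and HIST1H2BG. HIST1H2AE stood at 79.4 in resting WT, 16.1 in activated WT, 15.9 in resting HuRKO and 1.46 in activated HuRKO cells. The resting HuRKO level was thus about that of activated WT cells, and the log2 difference from WT was -2.32 at rest (FDR 6e-05) and -3.46 after activation (FDR 0.00011) in the authors' deposited table. HIST1H4C stood at 96.8, 35.4, 36.9 and 6.08 in the same groups, 2.62-fold lower in HuRKO cells at rest and 5.81-fold lower after activation. HIST1H4D, another H4 gene, had the most negative called log2 difference after activation among H4 genes (-2.79, FDR 0.00068, authors' deposited table), with levels of 12 in WT and 1.73 in HuRKO cells.

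The calls in activated HuRKO cells came from every histone class, and the classes were not tested against each other. Lower were 5 of 6 H4, 4 of 6 H2A, 2 of 5 H3, 2 of 8 H2B and the single H1 gene, by the FDR of the authors' deposited table. Over all listed genes 35.4% were lower, beside 40% of the H3 and 25% of the H2B genes, so nothing is read from those counts. Of the 14 called histone genes 7 passed the table's limit there, 4 of H2A and 3 of H4. Of the H2B genes, HIST1H2BF stood at 39.4 in activated WT and 14.3 in activated HuRKO cells and was called. HIST2H2BF stood at 217, 53.0, 163 and 61.8 in resting WT, activated WT, resting HuRKO and activated HuRKO cells, and was not called for genotype in either state.

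HIST1H2AE and HIST1H2BG face away from each other with 283 bases between their starts, and share 1 stretch of promoter. It holds an octamer motif (ATTTGCAT, read here on both strands), a site known from H2B promoters that POU-domain proteins such as Oct-1 bind. A second such pair, HIST1H2AJ and HIST1H2BM, lies 304 bases apart around another octamer. The 30-base windows, with the octamer in capitals, lie at chr6:26216718-26216747 (minus strand, toward HIST1H2BG) and chr6:27814963-27814992 (plus strand, toward HIST1H2BM), and are printed because the members of each pair share them. The pairs were chosen after their values were seen, and were not tested against each other.
HIST1H2BG and HIST1H2AE: ttgaattctttATTTGCATgaaaggcctat
HIST1H2BM and HIST1H2AJ: ttctactcctaATTTGCATaataacattta
In resting HuRKO over WT cells the log2 differences were -2.05 and -2.32 for HIST1H2BG and HIST1H2AE, both called. For HIST1H2BM and HIST1H2AJ they were 0.53 and -0.60, neither called, in the authors' deposited table. After activation HIST1H2AE was called and HIST1H2BG was not (log2 -1.26, FDR 0.23, authors' deposited table).

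Promoters of 22 of the 26 histone genes were matched in RefSeq (GRCh38.p14, 250 bases before to 50 bases after the start). The octamer was present in 10 of these 22 on either strand, in 5 of 6 H2A and 5 of 6 H2B promoters and in 0 of the 10 H1, H3 and H4 promoters, against 1.77% of all 35116 promoters of that length. CCAAT, the letters of the CCAAT box, was present in 19 of 22 against 34.6% of all promoters, and TATAAA, the letters of a TATA box, in 13 of 22 against 11.5%. A match describes the letters only.

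Most calls among the small RNAs were toward lower levels. At rest 23 of 55 rows were lower in HuRKO cells and 0 higher, and after activation 44 were lower and 2 higher. Activation itself lowered 14 rows and raised 2 in WT cells, and lowered 28 and raised 1 in HuRKO cells, by the FDR of the authors' deposited table. The listed genes as a whole were called lower in 15.4%, 35.4%, 21.8% and 18.5% in these 4 comparisons. How many were called in each comparison also follows the table's selection, since 14 of the 55 rows are listed only through activated HuRKO over WT cells, 3 only through rest, 4 only through activation of WT cells and 0 only through activation of HuRKO cells. With 1 row each kept for U1, U2, U4, 5S and 5.8S, the one with the highest mean, there were 27 rows. Of these 10 were lower in HuRKO cells at rest, 18 after activation, 6 with activation of WT cells and 18 with activation of HuRKO cells. These counts depend on the copy kept. The kept 5S row, RNA5S3, was not called in activated HuRKO over WT cells (FDR 0.052, authors' deposited table). Of the 12 identical 5S rows, 9 were called lower there. The 27 rows still hold all 4 U3 rows.

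U3, the snoRNA that guides early cuts of the rRNA precursor, is present as 4 rows with 3 distinct sequences. SNORD3A stood at 1542 in resting WT, 653 in activated WT, 280 in resting HuRKO and 82.2 in activated HuRKO cells. Both HuRKO groups thus lay below both WT groups. It was 5.52-fold lower in HuRKO cells at rest (FDR 0.0048) and 7.94-fold lower after activation (FDR 0.00013) in the authors' deposited table. SNORD3B-1, SNORD3B-2 and SNORD3C were also called lower at rest and after activation. Their log2 differences ran from -2.67 to -2.42 and from -3.22 to -3.03 in the authors' deposited table. All 4 rows passed the table's limit in both comparisons, so these calls follow its selection.

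5.8S rRNA, which pairs with 28S rRNA in the ribosome, had the same order of groups. RNA5-8SN4 stood at 12119, 4358, 3675 and 963 in resting WT, activated WT, resting HuRKO and activated HuRKO cells. All 4 5.8S rows (RNA5-8SN1, RNA5-8SN4 and 2 rows named RNA5-8SN5) were called lower in every comparison. FDR values were 0.027 to 0.034 for HuRKO at rest and 0.0013 to 0.0023 after activation in the authors' deposited table. All 4 are listed only through activated HuRKO over WT cells, so that call was fixed by the selection.

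5S rRNA is made by RNA polymerase III from a cluster of repeats on chromosome 1. RNA5S2 stood at 45.6, 13.2, 6.09 and 2.72 in resting WT, activated WT, resting HuRKO and activated HuRKO cells, 7.48-fold lower in HuRKO cells at rest. Of the 12 identical rows, 9 were called lower at rest and 9 after activation, all of them past the table's limit there. Over the 12 rows log2 differences were -3.45 to -2.26 and -3.70 to -1.42 in the authors' deposited table. The lowest called values at rest were those of RNA5S12, RNA5S6 and RNA5S3, and after activation those of RNA5S8, RNA5S5 and RNA5S4. With activation of WT cells RNA5S10, RNA5S2 and RNA5S16 led the 5 called rows, and RNA5S10 stood at 38.8 at rest and 8.98 after it. Since the sequences are the same, this spread is no difference between RNAs.

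The U4 genes had the largest called fold differences of the snRNAs between genotypes. RNU4-1 stood at 207 in resting WT, 95.0 in activated WT, 15.9 in resting HuRKO and 6.58 in activated HuRKO cells. It was 13.0-fold lower in HuRKO cells at rest (FDR 0.0051) and 14.4-fold lower after activation (FDR 0.0016) in the authors' deposited table. RNU4-2 stood at 222, 95.8, 20.2 and 10.2 in the same groups and was called lower in both states as well. Both U4 rows passed the table's limit in both genotype comparisons, so these calls follow its selection. Over all listed genes 15.4% were lower in resting and 35.4% in activated HuRKO cells. Neither U4 gene was called for activation in either genotype.

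U2, which pairs with the branch site of introns, was called lower in HuRKO cells mainly after activation. All 13 rows passed the table's limit in activated HuRKO over WT cells, so that pattern is no result about U2. Over all listed genes 35.4% were lower in activated and 15.4% in resting HuRKO cells. RNU2-1 stood at 178, 70.5, 41.0 and 13.7 in resting WT, activated WT, resting HuRKO and activated HuRKO cells. Among all 13 U2 rows, 13 were called lower in activated HuRKO cells and 1, the row with C170T, in resting HuRKO cells. The 11 identical rows nonetheless had log2 differences of -2.32 to -1.47 at rest, beside -3.11 to -2.29 after activation, in the authors' deposited table. U1 gave 1 call in each state: RNU1-3 at rest, with levels of 342 in WT and 66.9 in HuRKO cells, and the row named U1 after activation, with 7.52 and 1.16. Each of these U1 rows is listed only through the comparison in which it was called, so both calls were fixed by the selection.

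**Figure D3:**
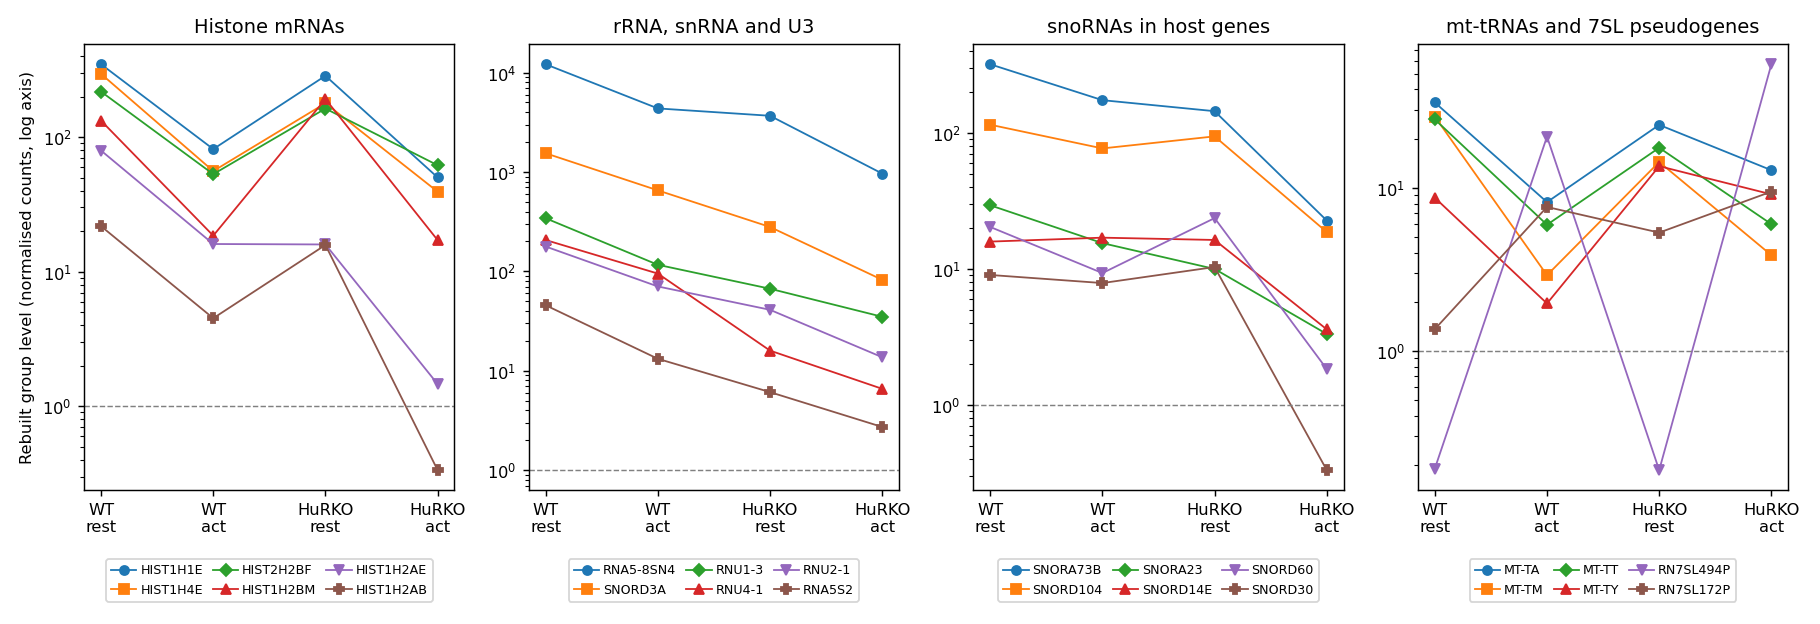
Rebuilt level (normalised counts, log axis, from the authors' deposited means and fold changes) of 24 members in the 4 groups; lines join the values of 1 gene, the dashed line is the floor of 1, and the points have no error bars because no spread per group was given. Histone levels drop in both activated groups, and rRNA, snRNA and U3 levels step down toward the right. Host-gene snoRNAs drop mainly in activated HuRKO cells, and mt-tRNAs are lowest in activated WT cells. These snoRNA and mt-tRNA rows passed the table's limit in comparisons with those groups.

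The most abundant of these RNAs had FDR values well above the median of other genes of like level and fold. With a mean level of at least 500 and an absolute log2 difference of 1 to 4 in activated HuRKO over WT cells, the 8 members were the 4 U3 and 4 5.8S rows. Their FDR ran from 0.00013 to 0.0023 (median 0.00091), against a median of 5.9e-50 in the 247 other listed genes with such levels and folds, in the authors' deposited table. At rest it ran from 0.0048 to 0.034 against a median of 5.2e-15 in 88 other genes, of which 12 also had an FDR of 0.001 or more, up to 0.44. With activation of WT cells it ran from 0.039 to 0.20 against a median of 2.2e-65 in 255 other genes, again in the authors' deposited table. HIST1H1E, by contrast, reached 4.6e-22 in that last comparison at a mean level of 191. Which libraries set these values was not analysed here.

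**Figure D4:**
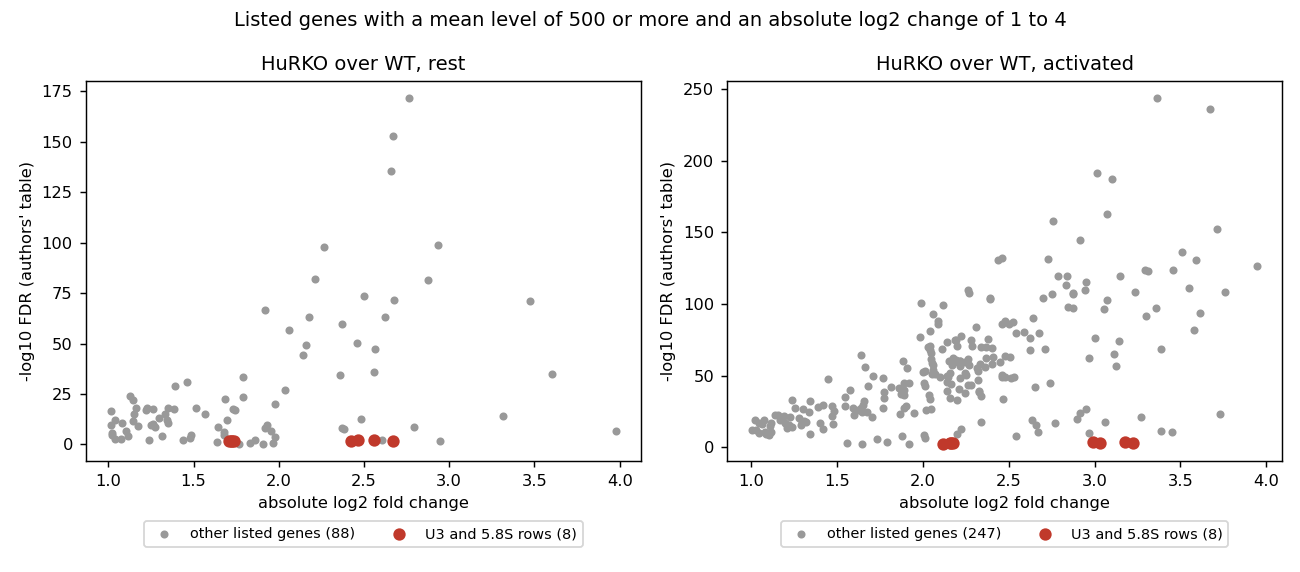
Absolute log2 difference (horizontal axis) against -log10 FDR (vertical axis), taken from the authors' deposited table, for listed genes with a mean level of at least 500 and an absolute log2 difference of 1 to 4, HuRKO over WT at rest and after activation. The 8 U3 and 5.8S rows (red) lie along the bottom edge, with FDR of 0.0048 to 0.034 at rest and 0.00013 to 0.0023 after activation.

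Calls of the listed snoRNAs inside other genes were mainly in activated HuRKO cells, in part through the table's selection. Of the 15 snoRNA rows, 10 lie within a gene on the same strand, from which such snoRNAs are normally released out of spliced introns. In activated HuRKO over WT cells 10 of 10 were lower, with a median log2 of -2.36, while at rest 2 of 10 were lower, with a median of -0.25, in the authors' deposited table. Over all listed genes 35.4% were lower after activation and 15.4% at rest. All 10 passed the table's limit in activated HuRKO over WT cells, so that count is no result about the class. Activation of WT cells called 0 of the 10, where 21.8% of all listed genes were lower. Activation of HuRKO cells called 9 lower, where 18.5% of all listed genes were lower. Of these 9, 8 passed the table's limit in that same comparison, so this count follows the selection too. Without strand and junction information in the values used, reads of a snoRNA and of its host transcript cannot be told apart.

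Box C/D snoRNAs guide 2′-O-methylation, and their box C lies near the 5′ end. All 6 listed box C/D genes other than U3 were lower in activated HuRKO than in activated WT cells, and 0 were called at rest. All 6 passed the table's limit after activation, so that count is no result about the class. Over all listed genes 35.4% were lower after activation and 15.4% at rest. The first 25 bases of 4 of the 6 are shown with box C in capitals. They lie at chr17:64146083-64146107 (plus strand), chr11:62853708-62853732 (minus), chr16:2155081-2155105 (minus) and chr11:123058137-123058161 (minus).
SNORD104: gctgTGATGAcattccaattaaagc
SNORD30: gtttgTGATGActtacatggaatct
SNORD60: agtctgTGATGAattgctttgactt
SNORD14E: tcacaaTGATGAatggtccaaaaca
SNORD30 stood at 9.04, 7.88 and 10.3 in resting WT, activated WT and resting HuRKO cells and at 0.330 in activated HuRKO cells. It was at least 7.88-fold lower in activated HuRKO than in activated WT cells (FDR 0.0019, authors' deposited table). SNORD14E stood at 15.9, 17 and 16.4 in the first 3 groups and at 3.59 in activated HuRKO cells. For both, 1 group of the 4 stood apart and the other 3 lay close together.

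SNORD60 and SNORD91B also lay lowest in activated HuRKO cells. SNORD60 stood at 20.4, 9.33, 23.7 and 1.83 in resting WT, activated WT, resting HuRKO and activated HuRKO cells, and was 12.9-fold lower after activation of HuRKO cells. SNORD91B stood at 8.20, 6.05, 10.2 and 0.857 in these groups.

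Of 25 small RNA host genes looked for, 2 were in the table. Both were lower in activated HuRKO than in activated WT cells, as were their snoRNAs, and these rows all passed the table's limit there. The hosts of the other snoRNAs inside genes are not listed, nor is RCC1, which also holds SNORA73B. SNORD104, in an intron of SNHG25, stood at 115, 77.3, 94.8 and 18.7 in resting WT, activated WT, resting HuRKO and activated HuRKO cells, and SNHG25 at 60.7, 29.5, 59.8 and 6.78. Neither was called between genotypes at rest, and the log2 difference after activation was -2.05 (FDR 5e-10) for SNORD104 and -2.12 for SNHG25 in the authors' deposited table. SNORA73B, a box H/ACA snoRNA in an intron of SNHG3, stood at 322, 175, 145 and 22.7. SNHG3 stood at 2546, 1627, 2744 and 353, and was not called between genotypes at rest. SNORA73B at rest narrowly missed the threshold (log2 -1.15, FDR 0.059, authors' deposited table). With activation of WT cells both hosts were called lower, SNHG25 at FDR 0.0041 and SNHG3 at FDR 1.7e-06 in the authors' deposited table. Their snoRNAs were not, at FDR 0.060 for SNORD104 and 0.11 for SNORA73B. With activation of HuRKO cells both hosts and both snoRNAs were called lower.

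Box H/ACA snoRNAs guide the change of uridine to pseudouridine. By the FDR of the authors' deposited table all 5 listed ones were lower in activated HuRKO cells. At rest 2 of them, SNORA23 and SNORA53, were lower too. All 5 passed the table's limit after activation, so that count is no result about the class. Over all listed genes 35.4% were lower after activation and 15.4% at rest. SNORA23, inside IPO7, stood at 29.5, 15.5, 10.0 and 3.32 in the 4 groups, and SNORA53, over an exon of SLC25A3, at 14.1, 9.42, 3.07 and 1.83.

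The rebuilt levels of the 5 mt-tRNAs were lowest in activated WT cells, but 4 of the 5 were not called between the activated genotypes. All 5 were called lower in activated over resting WT cells and 3 in activated over resting HuRKO cells, by the FDR of the authors' deposited table. Over all listed genes 21.8% and 18.5% were lower in these comparisons. All 5 mt-tRNAs passed the table's limit in the WT comparison, and MT-TA, MT-TM and MT-TT are listed only through it. MT-TF passed the limit in the HuRKO comparison too. Neither the WT count nor the low level in activated WT cells is thus a result about the class. MT-TM, the methionine tRNA, stood at 27.3 in resting WT, 2.91 in activated WT, 14.4 in resting HuRKO and 3.86 in activated HuRKO cells. MT-TF, the phenylalanine tRNA, stood at 8.50, 1.35, 12.9 and 2.74 in these groups.

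MT-TA and MT-TT, for alanine and threonine, were also lowest in activated WT cells, though the activated groups of MT-TT lay close together. MT-TA stood at 33.3, 8.16, 24.3 and 12.8 in resting WT, activated WT, resting HuRKO and activated HuRKO cells, and MT-TT at 26.2, 5.93, 17.6 and 5.98. MT-TY, the tyrosine tRNA, stood at 8.68, 1.95, 13.5 and 9.11. It was the 1 mt-tRNA called for genotype, higher in activated HuRKO cells (log2 2.22, FDR 0.020, authors' deposited table), and it was not called for activation in HuRKO cells. MT-TY passed the table's limit in that genotype comparison, so the call follows its selection. Of 15 mitochondrial mRNA and rRNA genes looked for, 0 are in the table.

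Both 7SL rows are pseudogenes of the RNA of the signal recognition particle, and they were the only members called higher with activation of WT cells. Both passed the table's limit in that comparison, and RN7SL172P is listed only through it, so these calls follow the selection. RN7SL494P passed the limit with activation of HuRKO cells too. Over all listed genes 52.0% were called higher with activation of WT cells and 58.1% with activation of HuRKO cells. RN7SL494P stood at 0.190 and 20.6 in resting and activated WT cells and at 0.186 and 57 in HuRKO cells. Against the floor it was at least 20.6-fold higher after activation of WT cells and at least 57-fold higher after activation of HuRKO cells. It lies in an intron of HDC, the histidine decarboxylase gene, on the same strand, and HDC stood at 3.81, 4682, 13.8 and 17238 in resting WT, activated WT, resting HuRKO and activated HuRKO cells. Both genes were thus low at rest in each genotype and highest in activated HuRKO cells. RN7SL172P, inside an intron of HCLS1, stood at 1.36, 7.62, 5.31 and 9.46 in these groups.

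Genes that make or handle these RNAs were mostly outside the table, which means only that they did not pass its selection or were not tested. Of 17 genes for histone mRNA processing and histone gene transcription, 30 S-phase genes, 17 mitosis genes, 15 snoRNP protein genes, 28 snRNP genes and 19 RNA decay genes, 0 are listed. Of 17 genes tied to RNA polymerase I and rRNA processing 1 is listed, MYC, a transcription factor that drives ribosome production. It stood at 9353, 3323, 8010 and 125 in resting WT, activated WT, resting HuRKO and activated HuRKO cells. Of 13 RNA polymerase III genes 1 is listed, POLR3G, a subunit of that enzyme, at 1009, 678, 611 and 135. Both were lower in activated HuRKO than in activated WT cells by the FDR of the authors' deposited table.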

How the data were processed

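Per the labels' protocols, RNA was extracted with RiboZol and poly(A) libraries were made with an NEBNext Ultra Directional kit. TopHat, Bowtie2 and the hg38 build were used, per the submitters' processing notes. How reads were counted, on which strand, and by which test groups were compared is not given in the sources used here. The authors deposited 1 table with a mean signal per gene (taken as normalised counts over 12 libraries) and, per the file headers, a log fold change and FDR for 4 comparisons. The deposited changes are taken as log2 values: the header names no base, and below the floor the rebuilt levels gather most tightly on base 2 (a window 10% wide holds up to 30.6% of them in resting WT cells, against 5.34% on base e and 2.03% on base 10). The FDR is the authors' adjusted p-value.

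From these, group levels were rebuilt with Python 3.11.15, pandas 2.3.3 and numpy 2.4.6, and checked on simulated data. The floor was 1 normalised count. Folds against a lower level are given as at least that fold and cover counting error only. No test was computed here. All 81 gene IDs matched GENCODE 29 with their version. There were 0 unmapped columns of values per sample. The members and gene lists were chosen with earlier results of these data known. Genes are named by a rule: per class, the 5 with the highest mean and the 3 called with the largest change in each comparison, every member of a class of up to 6, and the listed genes of the background lists. Others (HIST1H2AK, SNORD14E, SNORD104, SNORA23, SNORA53, RNU2-1, the row named U1, the octamer pair HIST1H2AJ and HIST1H2BM, HIST1H4F and HDC) were named after their values were seen. Alternatives were a stricter FDR, a fold minimum, a minimum mean level and 1 row for each of U1, U2, U4, 5S and 5.8S.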

Additional observations from a re-analysis of the deposited data

How the results depend on the processing

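All histone counts, and all counts under an added minimum of 2-fold, moved by less than 1.5 times. Counts of the small RNA genes moved more. Lower in HuRKO cells at rest were 23 of 55, but 8 at FDR below 0.01, 12 of 26 with a mean level of at least 20, 10 of 27 with 1 row each for U1, U2, U4, 5S and 5.8S, and 7 of 24 with 1 row for U3 too, the last chosen after seeing the data. For activated HuRKO cells the 44 lower became 26, 25, 18 and 15 in that order, and the 2 higher became 1 and 0 under the first 2 settings. For activation of WT cells the 14 lower became 4, 4, 6 and 6, and the 2 higher became 1 and 0. For activation of HuRKO cells the 28 lower became 15, 18, 18 and 15, and the 1 higher became 0 with a mean level of at least 20. Under the last 3 settings fewer rows were counted. On base e the rebuilt levels differ, for example 1.65 in place of 6.58 for RNU4-1 in activated HuRKO cells, but calls do not. No paired analysis was possible because the table holds no values per library, and leaving out 1 replicate at a time could not be run for the same reason. Depth limits the lowest members, since 1 count per library is the floor.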
